A study of Mus musculus with 72 samples.

Results

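Some rows of the count table were empty in many libraries and abundant in a few. Rows with 0 counts in at least 24 of the 72 libraries were ranked by their highest level, and the 100 with the highest maximum were taken, out of 32377 rows in all. Levels are CPM, the count of a row scaled by its library's total so that every library sums to 1e6. The maximum was taken over the 71 libraries with a total of at least 10000 counts. Among 24184 rows that had a count anywhere, 15847 had 0 in at least 24, so zeros of this number were common and the height of the maximum made the choice. Zeros and maxima chose these rows, so both are given as a description without a test. Differences of the rows between genotypes and times were tested, with limits stated beside those tests.

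The samples are white adipose tissue of mice, labelled eWAT, from WT animals, from animals labelled LRE and from full-body Bmal1 knockouts (KO). Each genotype was sampled at zeitgeber times (ZT) 0, 4, 8, 12, 16 and 20 h with 4 replicates, which gives 18 groups of 4 and 24 libraries a genotype. The series title asks about the liver clock and rhythms in white fat. LRE is not spelled out in the labels, and strain, sex, age and pooling of animals are not stated in the sources used. The design text names AML12 cells, a hepatocyte line, while every sample label names the fat tissue; the sample labels were followed. Nothing in the labels ties each replicate to its own animal, so the p-values reflect only how far these samples spread, which may be technical.

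Bmal1 pairs with Clock to switch on genes in daily cycles, so a full-body knockout lacks the clock's activating arm in every tissue. Zeitgeber time counts hours from lights on. White fat stores triglyceride in adipocytes and also holds vessels, immune cells and a mesothelial surface, so a bulk library is a mixture. In such a mixture fewer cells of a type and less RNA per cell cannot be told apart. The deposited table pairs no row with a gene or feature identifier. Rows are therefore called by their number, counted from 1 after the header line, and no gene, marker or sequence is named for them. Neither the tissue label nor the knockout could be checked against a gene.

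The libraries held between 5293 and 508821 counts (median 86032), with medians of 116104 for WT, 92614 for LRE and 69724 for KO. A single count equals 11.6 CPM at the median total. It equals 189 CPM in the shallowest library, KO ZT16 replicate 1, and 1.97 CPM in the deepest. Earlier results of these data set 7 libraries apart from the rest: the 4 of WT ZT16, WT ZT12 replicate 2, WT ZT20 replicate 4 and KO ZT16 replicate 1. Several of the levels below rest on them, and counts of calls are given with and without them where they change.

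A typical WT library had 0.184% of its counts on the 100 rows, a typical LRE library 0.558% and a typical KO library 2.28% (medians of 24). These shares depend on the limit on zeros: with at least 36 zeros required, the 100 rows chosen held 0.0940%, 0.297% and 0.634%. The extremes were in WT. In WT ZT20 replicate 4 the rows held 45.3% of the counts (95% exact binomial interval 45.0% to 45.5%, counting error only), and in WT ZT12 replicate 2 they held 27.9% (27.6% to 28.2%). No LRE library passed 9.22% and no KO library passed 8.92%. At the other end, WT ZT4 replicate 2 had 5 counts on all 100 rows together. WT libraries had a count on a median of 25.5 of these rows, LRE libraries on 48 and KO libraries on 57. Depth ran the other way, and after every library was thinned to 30000 counts the medians were 18.5, 39.5 and 46, with KO ZT16 replicate 1 left out as too shallow.

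The rows did not come and go singly. Rows were joined by average linkage on the correlation of log2(CPM + 10) over the 71 libraries, the tree was divided at 1 - r = 0.4, and 97 of the 100 rows fell into 4 sets of 36, 32, 15 and 14 rows. Within a set the median r between rows was 0.87 in the 36-row set, 0.90 in the 32-row set, 0.91 in the 15-row set and 0.82 in the 14-row set. The sums of the 36-row and the 14-row set ran together at r = 0.82, and those of the 36-row and the 15-row set did not (r = -0.04). These correlations describe the 71 libraries on which the sets were built and have no p-value. The map of all 100 rows by library shows the sets as blocks that are filled in some libraries and blank in others.

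**Figure D1:**
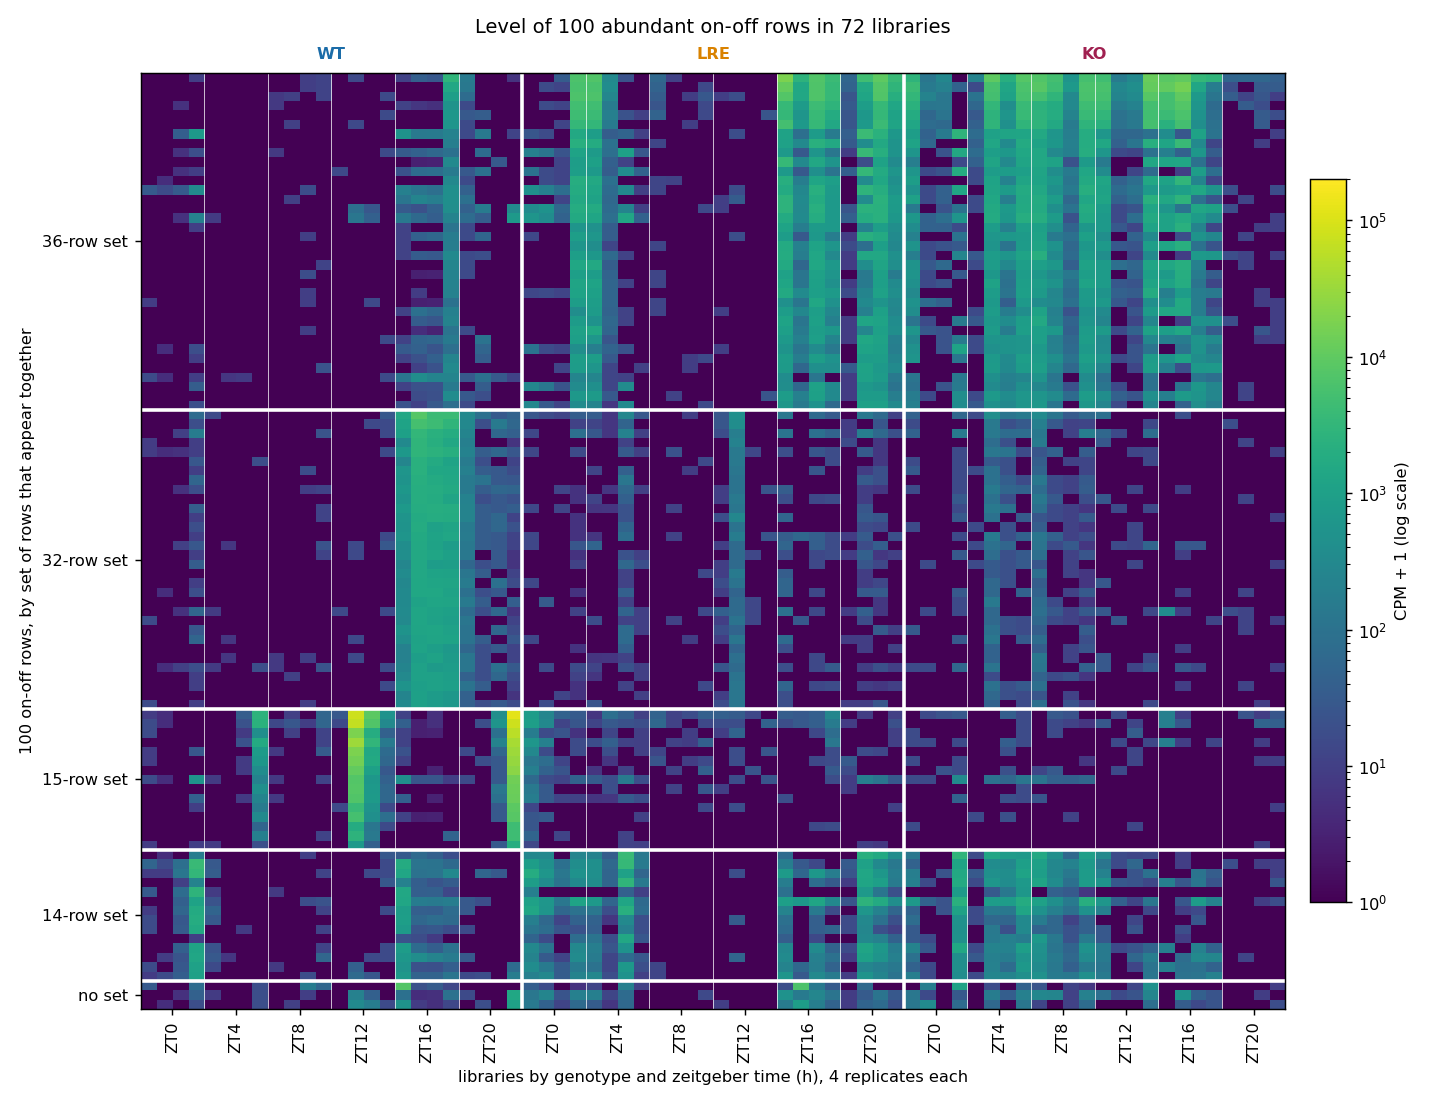
Level of each of the 100 rows (vertical, grouped by set) in each of the 72 libraries (horizontal, by genotype and zeitgeber time, 4 replicates each), as CPM + 1 on a log colour scale. The 36-row block is filled in most KO libraries except those of ZT20, the 32-row block in the 4 WT libraries of ZT16, and the 15-row block in a handful of WT libraries.

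The 36-row set was present in most KO libraries, in about as many LRE libraries as not, and in few WT libraries. Its summed level reached 1000 CPM in 19 of 24 KO, 13 of 24 LRE and 6 of 24 WT libraries, and 10000 CPM in 13 KO, 9 LRE and 1 WT library. The median sum was 14642 CPM in KO, 1898 in LRE and 76.0 in WT. Where the sum was at least 10000 CPM, a median of all 36 rows had a count (lowest 21, in KO ZT0 replicate 4). Where it was under 100 CPM, in 15 WT and 5 LRE libraries, 0 to 8 of the 36 had one. Between these levels the set was present in part: 5 to 36 rows (median 22) had a count in the 15 libraries at 1000 to 10000 CPM, and 4 to 25 (median 12.5) in the 14 libraries at 100 to 1000 CPM.

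Within LRE and KO some times stood apart. In LRE, the 4 libraries of ZT8 had summed levels of 314, 30.8, 33.0 and 111 CPM and those of ZT12 had 42.2, 102.2, 0 and 47.2 CPM. The 0 stands for no count, which allows up to 36.8 CPM at that library's total. At ZT16 the 4 LRE libraries had 86374, 12863, 65738 and 31706 CPM, all above every LRE library of ZT8 and ZT12. At ZT20 they had 523, 44695, 75001 and 24391 CPM. In KO, ZT20 stood apart as the low group, at 176, 172, 264 and 194 CPM, below every other KO library. One time point earlier, the KO libraries of ZT16 had 54789, 88138, 21028 and 9795 CPM, and those of ZT8 had 62422, 30487, 4661 and 60794 CPM.

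Within other groups the replicates spread widely. LRE at ZT0 gave 2349, 1447, 387 and 63859.8 CPM, KO at ZT4 gave 931, 56056, 17682 and 60576 CPM, and KO at ZT12 gave 43803, 1679, 2576 and 72541 CPM. A spread of this size lies within 1 genotype and time. WT libraries were low at ZT4, at 7.23, 5.92, 6.98 and 0 CPM. They were higher at ZT16, at 1309, 1529, 1314 and 13941 CPM, above all 16 WT libraries of ZT4, ZT8, ZT12 and ZT20. WT ZT0 overlapped them, since its replicate 4 had 1464 CPM and its other 3 libraries 26.8 to 87.4 CPM.

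The 3 rows of this set with the highest maxima mostly followed the sum. Row 13937 had counts in 23 of 24 KO, 15 LRE and 10 WT libraries, with medians of 2427 CPM in KO, 44.4 in LRE and 0 in WT. Row 2038 had counts in 23 KO, 15 LRE and 4 WT libraries, and row 2051 in 23, 16 and 6. In the 8 libraries highest in the set, row 13937 took 8.85% to 20.7% of the set's counts, row 2038 took 9.38% to 18.1% and row 2051 took 8.67% to 11.7%. The order of these rows therefore changed among these 8 libraries, all of which held them. Other libraries had the set almost without them. KO ZT0 replicate 4, with 11601 CPM of the set, had 0, 3 and 0 counts of rows 13937, 2038 and 2051. Row 24203 of the set had 193 counts there.

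**Figure D2:**
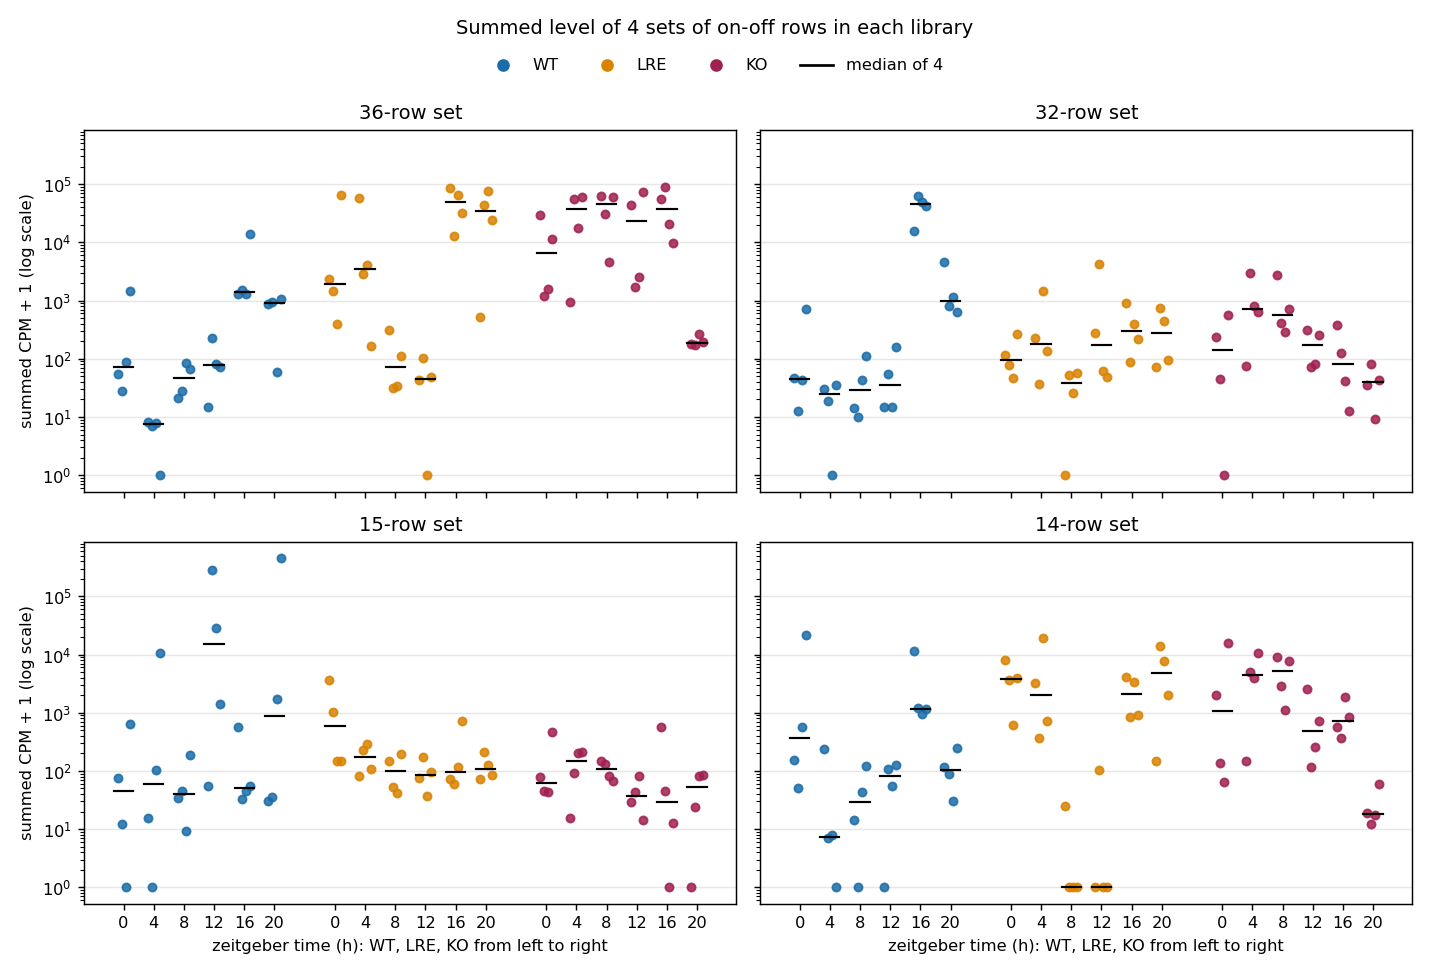
Summed CPM + 1 of each of the 4 sets (log axis) in every library, by zeitgeber time within WT, LRE and KO. Each point is 1 library and each bar the median of 4. The 36-row set is low in all 4 KO libraries of ZT20 (172 to 264 CPM) and the 32-row set is high in all 4 WT libraries of ZT16 (15608 to 63266 CPM).

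The 32-row set belonged to 1 group. The 4 WT libraries of ZT16 had summed levels of 15608, 63266, 49923 and 42884 CPM, and all 32 rows had a count in each of them. The highest of the other 68 libraries was WT ZT20 replicate 1 with 4662 CPM, followed by LRE ZT12 replicate 2 with 4240.3 CPM. For 31 of the 32 rows, each of the 4 WT ZT16 libraries lay above all 68 others; among the 3724 rows tested below, 8.4% had this pattern. The rule took rows with a high maximum, and the WT ZT16 libraries hold the maximum of all 32, so this is a description.

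Rows 26279, 12278 and 4909 had the highest maxima of this set. In WT ZT16 row 26279 stood at 1502, 8195, 4023 and 4029 CPM, and row 12278 at 1177, 5483, 4283 and 2895 CPM. Row 4909 stood at 1015, 3274, 2270 and 1881 CPM. Replicate 1 was the lowest of the 4 for each of these rows. The next time point, WT ZT20, kept part of the set: its summed level was 4662, 808, 1144 and 623 CPM, against 13.7, 54.0, 13.6 and 156 CPM at WT ZT12. All 4 libraries of WT ZT20 lay above all 4 of WT ZT12.

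Outside WT the 32-row set reached 1000 CPM in 4 libraries of 4 groups, LRE ZT4 replicate 3, LRE ZT12 replicate 2, KO ZT4 replicate 2 and KO ZT8 replicate 1, at 1466 to 4240.3 CPM. The other 3 libraries of LRE ZT12 had 279, 61.4 and 47.2 CPM. In LRE ZT12 replicate 2 the 32-row set came without the 36-row set, which stood at 102.2 CPM there, while KO ZT4 replicate 2 and KO ZT8 replicate 1 held both. In those last 3 libraries row 26279 took 10.4% to 13.9% of the set's counts, within or just above the 8.06% to 13.0% it took in WT ZT16. In LRE ZT4 replicate 3 it had 27 of the set's 144 counts, a share above both ranges.

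The 15-row set held the most abundant rows of all and reached 1000 CPM in 8 libraries, the fewest of the 4 sets. Its 5 highest rows were 3906, 3908, 9806, 3910 and 15644, with maxima of 118750, 78231, 55325, 41419 and 33435 CPM, all in WT ZT20 replicate 4. That library's summed level was 448235 CPM, and WT ZT12 replicate 2 had 278163 CPM. All 15 rows had their maximum in the first of these. The replicates did not share it: the other 3 libraries of WT ZT20 had 29.2, 35.1 and 1730.3 CPM. Beside replicate 2, WT ZT12 had 54.8, 29101 and 1429 CPM.

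Beside these 2, 6 libraries reached 1000 CPM on this set. Apart from those of WT ZT12 and ZT20 just given they were WT ZT4 replicate 4 with 10645 CPM, LRE ZT0 replicate 1 with 3696 CPM and LRE ZT0 replicate 2 with 1016 CPM. No KO library did; the highest was KO ZT16 replicate 1 with 567 CPM, which is 3 counts at its depth. In 42 of the 72 libraries the sum was under 100 CPM. Low counts of the leading rows were nevertheless widespread: row 3906 had a count in 14 WT, 21 LRE and 13 KO libraries and row 3908 in 18, 20 and 10. Row 9806 had one in 13 WT, 12 LRE and 4 KO libraries, and row 15644 in 12, 11 and 2.

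The make-up of the 15-row set was not fixed. Row 9806 took 12.3% of the set's counts in WT ZT20 replicate 4 (10567 of 85612 counts, exact interval 12.1% to 12.6%) and 6.58% in WT ZT12 replicate 2 (6.25% to 6.93%). Row 3908 went the other way, at 17.5% (17.2% to 17.7%) and 23.5% (22.9% to 24.1%). The 2 libraries highest in the set thus differed in its proportions beyond counting error. WT ZT4 replicate 4, with 611 counts on the set, had 3.93% on row 9806 (2.53% to 5.79%) and 22.6% on row 3908 (19.3% to 26.1%). LRE ZT0 replicate 1, with 291 counts, had 4.47% (2.40% to 7.52%) and 25.4% (20.5% to 30.8%). For both rows these intervals, which cover counting error only, exclude the share in WT ZT20 replicate 4. For row 3906, at 24.5% (21.2% to 28.2%) and 23.02% (18.3% to 28.3%), they include its 26.5%.

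**Figure D3:**
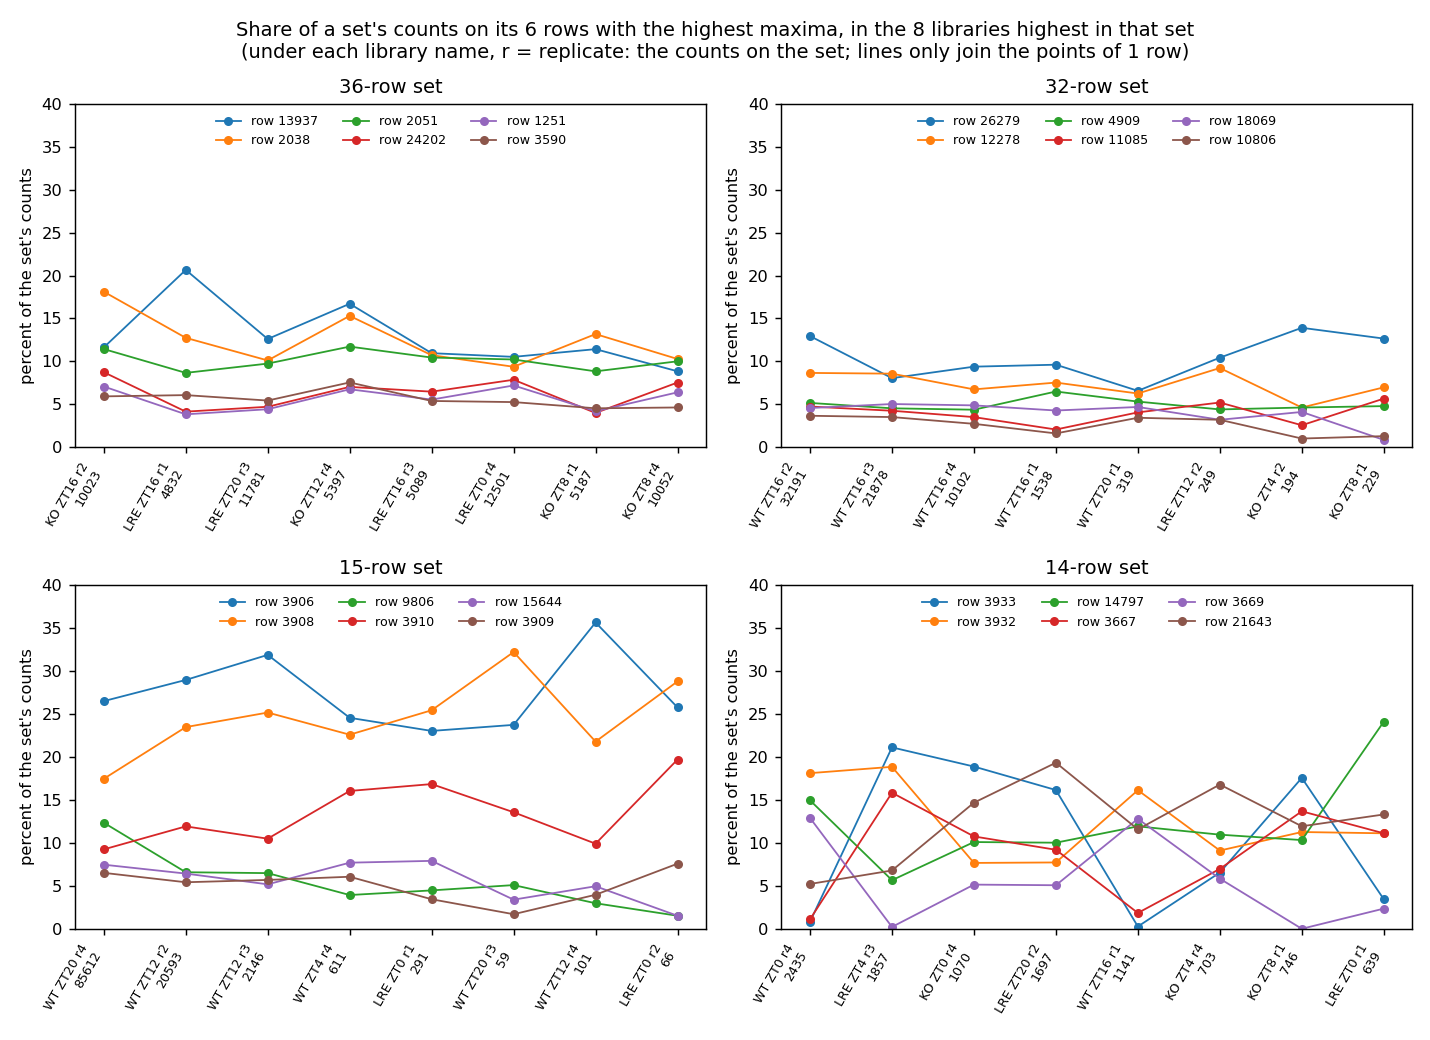
Percent of a set's counts that fell on each of its 6 rows with the highest maxima, in the 8 libraries with the highest sum of that set (left to right from highest; counts on the set are printed under each name). In the 15-row set row 9806 falls from 12.3% in WT ZT20 replicate 4 to 6.58% in WT ZT12 replicate 2, and in the 14-row set row 3933 runs from 0.263% to 21.1%.

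The 14-row set was spread over all 3 genotypes. It reached 1000 CPM in 4 WT, 10 LRE and 11 KO libraries and 10000 CPM in 2 of each. The 6 highest were WT ZT0 replicate 4 (21352 CPM), LRE ZT4 replicate 3 (18905), KO ZT0 replicate 4 (15873), LRE ZT20 replicate 2 (13945), WT ZT16 replicate 1 (11579) and KO ZT4 replicate 4 (10699.8). In each of these all 14 rows had a count. Medians were 112 CPM in WT, 784 in LRE and 792 in KO. LRE at ZT8 and ZT12 was nearly empty: 6 of the 8 libraries had no count on the set, and the other 2 had 24.1 and 102.2 CPM. At KO ZT20 the 4 libraries had 17.6, 11.5, 16.5 and 59.1 CPM, below every other KO library, the next being KO ZT0 replicate 3 at 64.1 CPM.

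Row shares varied most in this set. Of the set's counts, row 3933 took 21.1% in the LRE library highest in the set and 18.9% in the KO library highest in it, but 0.821% in WT ZT0 replicate 4 and 0.263% in WT ZT16 replicate 1. Row 3932, next to it in the table, took 7.66% to 18.8% over the 8 highest libraries, and row 14797 took 5.65% to 24.1%. The 2 highest WT libraries thus held the set almost without row 3933. In CPM, row 3933 stood at 3991 in LRE ZT4 replicate 3 and 175 in WT ZT0 replicate 4, whose sums for the set were 18905 and 21352.

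The 36-row and the 14-row set mostly came together, but in different amounts. All 25 libraries with at least 1000 CPM of the 14-row set had at least 1000 CPM of the 36-row set as well. In some of them only part of the 36-row set was there. WT ZT0 replicate 4 had a count on 12 of the 36 rows, and row 24203 held 86 of its 167 counts. LRE ZT0 replicates 1 and 2 had a count on 11 and 13 of the 36 rows. The ratio of the 14-row to the 36-row sum had a median of 0.126 over these 25. It ran from 0.0482 in LRE ZT16 replicate 1 to 14.6 in WT ZT0 replicate 4. In 11 libraries, 8 of KO and 3 of LRE, the 36-row set alone passed 1000 CPM. KO ZT16 replicate 2 shows this, with 88138 CPM of the 36-row and 369 CPM of the 14-row set.

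Counting a set as present at 1000 CPM, 27 libraries held none of the 4 sets, 12 of them WT, 10 LRE and 5 KO. The 36-row and 14-row sets without the others were held by 17 libraries (1 WT, 7 LRE and 9 KO). These 2 with the 32-row set were held by 6 libraries, 3 of WT ZT16 among them. The 15-row set came alone in 4 WT libraries, with the 36-row set in WT ZT20 replicate 4, with the 32-row set in WT ZT20 replicate 3, and with the 36-row and 14-row sets in LRE ZT0 replicates 1 and 2. No library held all 4. The 8 LRE libraries of ZT8 and ZT12 held none apart from LRE ZT12 replicate 2, and the 4 KO libraries of ZT20 held none.

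Rows 9555, 24471 and 15521 joined no set. Row 9555 was high in 2 libraries of different genotypes at the same time, WT ZT16 replicate 1 with 7743 CPM and LRE ZT16 replicate 2 with 6648 CPM. The other 3 WT ZT16 libraries had 12.7 to 31.95 CPM of it. Rows 24471 and 15521 peaked in WT ZT20 replicate 4, at 1461 and 1079 CPM.

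Members of a set often stood next to each other in the table. Of the 15-row set, 9 rows were directly followed or preceded by another row of the set, as were 18 of the 36-row, 6 of the 32-row and 5 of the 14-row set. Rows 3905 to 3910 are 6 consecutive members, of the 15-row and the 14-row set, and rows 24658 to 24662 hold 4 members of the 36-row set. The files do not say how rows are ordered, so nearness in the table is not read as nearness in the genome. Rows that are near copies of each other could share reads, and the sources do not say whether the authors' counting split such reads.

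At the edge of the choice, the last members were rows 18004 and 3367 with maxima of 1043.59 and 1043.47 CPM, and the first rows left out were 25195 and 14512 with 1037.69 and 1035.73 CPM. The limit on zeros mattered as well. A further 7 rows had a maximum above the last member but only 21 to 23 zeros. One of these, row 3911, is named here after its values were seen. It stands directly after the run above, reached 115483 CPM in WT ZT20 replicate 4 with 21 zeros and had r = 0.91 with the sum of the 15-row set. Of the 7146 other rows with a maximum of at least 100 CPM, 97 had r of at least 0.8 with the sum of the 36-row set, 45 with the 32-row, 1 with the 15-row and 59 with the 14-row set. Of these, 34, 2, 1 and 25 had fewer than 24 zeros and so failed that limit, row 3911 being the 1 of the 15-row set.

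The labels of genotype and time did not enter the choice of the rows, but the maximum that chose a row lies in 1 of the groups compared, so the tests below are not independent of the choice. They come from a fit of all rows that passed a filter on low counts (edgeR's quasi-likelihood F-test over 3724 rows, Benjamini-Hochberg adjusted p under 0.05). Of the 100 rows, 98 were tested and rows 9805 and 5663 of the 15-row set were not. A row that passed only through the group where it was high had to differ, so the counts below describe the rows and support nothing about them as a list. Counts at an unadjusted p, by other methods or with libraries left out are of the chosen rows alone. Shares over all rows are not given for those counts, so they do not show whether the chosen rows differ from the rest. Levels are means, over the 6 times, of the log2 level that the fit gave each group, so 1 high library can set the value of its group. A row with no count in at least 1 group of both genotypes compared has no finite value for such a difference, and the fit returned a p of about 1 for it. Of the 98 rows this held for 56 in the contrast of KO with WT, for 70 in that of LRE with WT and for 54 in that of LRE with KO. Of the 3724 it held for 244, 285 and 256. Rows with an empty group in only 1 of the genotypes compared stayed among the others. Their difference is not finite either, and its fitted size depends on the prior count.

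KO and WT differed in level at 20 of the 98 rows, against 22.8% of the 3724. Of these, 15 were higher in KO, where 10.4% of all rows were called, and 5 lower, where 12.4% were. Among the 42 members without an empty group in both genotypes, 20 were called, against 24.4% of all such rows. The higher rows were 13 of the 36-row and 2 of the 14-row set, and the 5 lower rows were all of the 15-row set. All 36 rows of the 36-row set had a fitted level above WT. The median log2 difference was 5.68 over the 24 without an empty group in both genotypes, against -0.05 over all such rows. The 4 libraries of WT ZT4 had 1, 1, 1 and 0 counts on the whole set, so the size of this median depends on the prior count. Without the 7 libraries that stood apart, which leaves no WT library of ZT16 and so 5 times, 15 rows were higher and 2 lower.

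On the log2 scale row 13937 rose in KO by 7.01 ± 0.92 (SE, edgeR adjusted p = 1.32e-07), and row 2038 by 7.60 ± 1.14 (adjusted p = 2.92e-06). Row 2051 rose by 7.08 ± 1.11 (adjusted p = 5.00e-06). These 3 calls held under every alternative run, with 0.000415 as the highest adjusted p by any of them. WT groups without a count enter these fits, so the size of each fold change depends on the prior count and is not a bound. At KO ZT20 row 2038 stood at 17.6, 0, 33.0 and 33.8 CPM and in WT ZT20 at 132, 0, 0 and 0 CPM, so the higher level in KO was not seen in every group of 4. Rows 2038 and 2051 were chosen through their maximum in KO ZT16 replicate 2, so their calls partly restate the choice.

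Rows 3908, 15644 and 3906 were chosen through their maximum in WT ZT20 replicate 4, so their calls as lower in KO partly restate the choice. For row 3908 the log2 difference of KO from WT was -5.42 ± 1.23 (SE, edgeR adjusted p = 0.000949), a call lost with limma-voom (adjusted p = 0.203). Row 15644 was lower by -6.19 ± 1.71 (adjusted p = 0.00707) and row 3906 by -4.67 ± 1.33 (adjusted p = 0.0081). The call for row 15644 ended with limma-voom (0.217) and without WT ZT4 replicate 4 or WT ZT16 replicate 1 (1.00 each), which held the only WT counts of their groups. It also ended without replicate 1 or replicate 4 of every group (1.00 each). That for row 3906 ended with limma-voom (0.384), without the 7 libraries (0.0806) and without WT ZT0 replicate 1 (0.0564), WT ZT0 replicate 2 (0.0554), WT ZT8 replicate 4 (0.0628) or WT ZT16 replicate 3 (0.0624). Leaving out any 1 replicate number from every group ended it too, with adjusted p from 0.0614 to 0.285. Row 15644 had a count in 12 WT libraries, at 819, 1505, 17871 and 33435 CPM in 4 of them and at 6.70 to 70.7 CPM in the others, and it had a count in 2 KO libraries, at 11.7 and 18.5 CPM.

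LRE and WT differed in level at 5 of the 98 rows, against 16.1% of all rows. Row 2051 was higher (6.69% of all rows were), and 4 rows of the 15-row set were lower (9.45% of all rows). Among the 28 members without an empty group in both genotypes 5 were called, against 17.5% of such rows. Row 2051 rose by 5.58 ± 1.65 on the log2 scale (SE, edgeR adjusted p = 0.0136). That call ended without LRE ZT0 replicate 4 (1.00), LRE ZT12 replicate 1 (0.100) or LRE ZT12 replicate 2 (0.0992). Row 3908 fell by 3.39 ± 0.98 on the log2 scale (adjusted p = 0.0115), a call lost with limma-voom (0.570), without the 7 libraries (0.155) and without WT ZT0 replicate 1 (0.152), WT ZT4 replicate 4 (0.0682) or WT ZT20 replicate 4 (0.0842). Rows 9806 (adjusted p = 0.0490) and 15644 (0.0459) passed narrowly, and leaving out 1 library ended the call in 44 and 26 of 72 fits. Without the 7 libraries 1 row was called, and with a replicate block 2. The 4 lower rows were chosen through their maximum in WT ZT20 replicate 4, so their calls partly restate the choice. The contrasts of LRE with WT use the same WT libraries as those of KO with WT, so their likeness is not a second result.

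LRE and KO differed in level at none of the 98 rows by edgeR's test, and 0% of the 3724 rows were called. At an unadjusted p under 0.05 there were 3, all of the 36-row set. limma-voom also called 0 and DESeq2 called 21, 7 higher and 14 lower in LRE. The sum of the 36-row set had its median at 1898 CPM in LRE and 14642 in KO, and its range in either genotype spanned the median of the other.

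Levels differed between the 6 times in WT at 84 of the 98 rows, against 53.2% of all rows. They were all 32 rows of the 32-row set, all 13 tested of the 15-row set, 24 of the 36-row, 12 of the 14-row set and the 3 rows of no set. All rows of the 32-row set have their maximum in WT ZT16 and those of the 15-row set in WT ZT20, so these calls restate the choice and no p is given for them. Rows 18069, 27611 and 30101 of the 32-row set had the smallest p. Row 18069 stood at 670 to 2899 CPM in the 4 libraries of WT ZT16, at 26.2 to 219 CPM at ZT20, and at no more than 14.1 CPM in any other WT library. Without the 7 libraries, which removes WT ZT16, 32 of the 98 rows were called.

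In LRE the times differed at 50 of the 98 rows, against 14.3% of all rows: 35 of the 36-row set, 10 of the 14-row set, 2 of the 32-row set and the 3 rows of no set. Row 1001 of the 36-row set (adjusted p = 0.00112 by edgeR) stood at 1734, 289, 2157 and 768 CPM at LRE ZT16 and at 12.1, 0, 0 and 0 CPM at ZT8. Row 24661 (adjusted p = 0.00124) and row 9555 (0.00112) were called as well. Rows 1001 and 24661 were chosen through their maximum in LRE ZT20 replicate 2, so their calls partly restate the choice. The call for row 9555 rests on LRE ZT16 replicate 2, without which it was lost (0.552). Leaving out replicate 3 of every group left 1 row called, and leaving out replicate 2 left 7.

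In KO the times differed at 1 row, against 0.483% of all rows. This was row 3933 of the 14-row set (adjusted p = 0.0475 by edgeR), lost in 51 of the 72 fits that left out 1 library. At an unadjusted p under 0.05 there were 66, with no share over all rows to set beside them, and limma-voom called 0. Without KO ZT4 replicate 1, which had 931 CPM of the 36-row set where the other 3 libraries of its group had 17682 to 60576, there were 10.

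Whether the course over the day differed between genotypes was tested directly, as an equal genotype difference at all 6 times. This test was added after the values had been seen. For KO against WT 63 of the 98 rows differed in course (32.5% of all rows). For LRE against WT there were 51 (26.5%), and for LRE against KO 55 (12.4%). Between LRE and KO they included all 36 rows of the 36-row set, whose LRE libraries were low at ZT8 and ZT12 and whose KO libraries were low at ZT20. Between either genotype and WT they included all 32 rows of the 32-row set. All of these have their maximum in WT ZT16, so their calls restate the choice. The rows of the 36-row set have their maxima in LRE or KO libraries, so their calls between LRE and KO partly restate it too. Without the 7 libraries the counts were 4, 6 and 56. Leaving them out removes all WT libraries of ZT16, so the tests against WT then covered fewer times and asked a different question. Among the 7, only KO ZT16 replicate 1 is not a WT library, so the test between LRE and KO lost that library alone. These counts therefore cannot show whether the count between LRE and KO is firmer than those against WT.

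Each library carries a position code of a letter (A to P) and a number in its labels, here read as a well of a plate. WT libraries have the numbers 1 and 2, LRE 2 and 3, and KO 4 and 5, and the letters run with time and replicate. No number was shared by 2 genotypes at the same time, so position, genotype and time cannot be told apart. For each of the 13 rows with a maximum of at least 10000 CPM, libraries of other groups in wells that share a side with the row's highest library were compared with those that share neither letter nor number. The mean was higher beside the highest library for 2 of the 13 rows (15.4%). The second high library, WT ZT12 replicate 2, lies among the latter wells for the 15-row set and sets their mean. With medians, an alternative chosen after the data were seen, the wells that share a side were higher for 13 of 13. The 13 rows are not separate observations. The 10 of the 15-row set share 1 highest library, WT ZT20 replicate 4, and the same 3 wells of other groups beside it. Rows 2038 and 2051 share KO ZT16 replicate 2, with 1 such well.

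Levels of the 15-row set fell off with the number of well steps from its 2 highest libraries, WT ZT20 replicate 4 in H2 and WT ZT12 replicate 2 in N1. The 7 libraries that share a side with either had a median sum of 1730.3 CPM (54.8 to 29101). The 12 libraries 2 steps away had 165 CPM (33.5 to 1429), and the 51 farther away had 66.5 CPM (0 to 649). Around H2 the 4 neighbours were WT ZT4 replicate 4 in H1 with 10645 CPM, LRE ZT0 replicate 1 in I2 with 3696, WT ZT20 replicate 3 in G2 with 1730.3 and LRE ZT16 replicate 4 in H3 with 721. The libraries outside the 2 highest that reached 1000 CPM all lay within 2 steps of one of them. The 3 neighbours of N1 had 29101, 232 and 54.8 CPM, so the level was not alike on all sides.

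**Figure D4:**
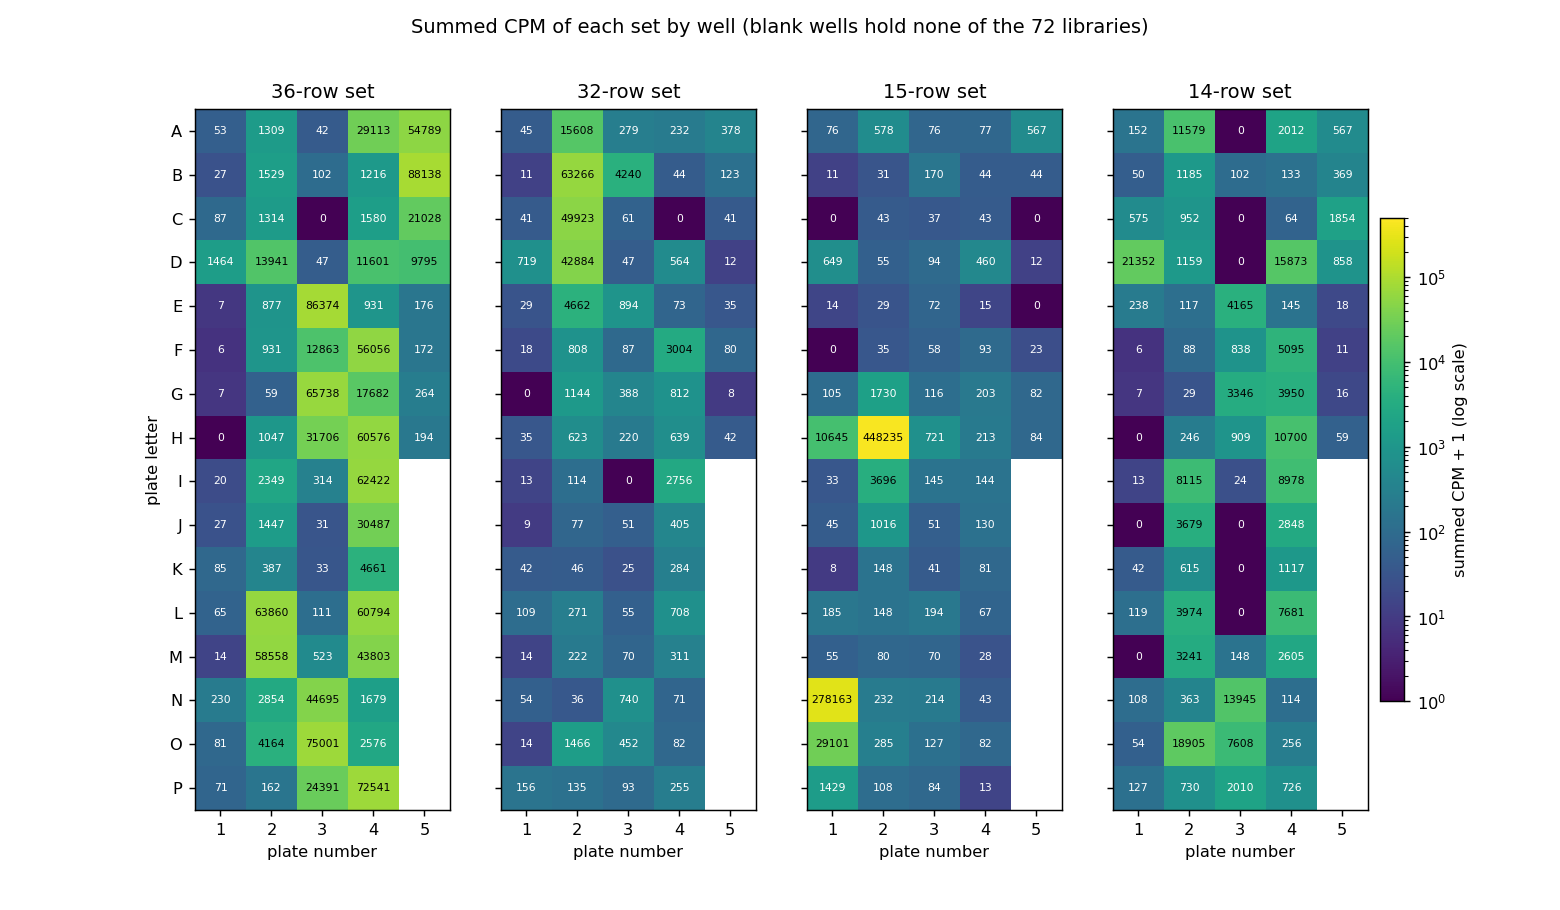
Summed CPM of each set in every library, laid out by position letter (vertical) and number (horizontal), with a log colour scale of CPM + 1; blank cells hold none of the 72 libraries. In the 15-row panel the wells that touch H2 (448235 CPM) hold 721 to 10645 CPM, and in the 32-row panel the wells A2 to D2 hold the 4 WT libraries of ZT16.

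Over libraries of all groups, the medians of the 36-row and 14-row sets also fell in order of steps, and those of the 32-row set did not. Of the 32-row set, the highest libraries outside WT ZT16 were those in E2, beside D2 (4662 CPM), and in B3, beside B2 (4240.3 CPM), but the 9 libraries that share a side with a WT ZT16 library had a median of 61.4 CPM, against 84.2 CPM for the 52 that are 3 or more steps away. KO ZT4 replicate 2, far from them, had 3004 CPM. For the 36-row set the medians were 700.0 CPM at 1 step from a library with at least 10000 CPM, 84.6 at 2 steps and 26.8 at 3 or more, the last over 4 libraries. For the 14-row set they were 301, 190 and 104 CPM. These include replicates of the same group as the nearest high library. Over the other groups alone the medians were 289, 81.4 and 26.8 CPM for the 36-row set. For the 14-row set they were then 152, 246 and 104 CPM, which do not fall in order. Genotype runs with position here, and its part in these medians cannot be told apart from that of position. Whether material passed between wells was not tested.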

How the data were processed

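Counts are whole numbers in 1 table that the authors deposited (32377 rows, 180 columns). STAR 2.5.4b and the builds mm10 and GRCm38 are named in the submitters' processing notes, and deduplicated, sorted alignments per the file headers. Which counter and annotation were used, and whether strand or molecular identifiers entered, is not given in the sources used here. Columns were tied to samples by position code, and the 108 columns of no sample here were not used. CPM used full column totals. Tests used R 4.3.3 and edgeR 4.0.16 (18 group means, 54 residual degrees of freedom, filterByExpr at a minimum count of 10 and a minimum total of 15, TMM), checked on simulated counts. The SE is the log2 fold change over the square root of F. Alternatives were RLE scaling, no filter, limma-voom 3.58.1, DESeq2 1.42.0, a replicate block, and libraries left out. Members and lists were chosen with earlier results of these data known. Rows named have the highest maxima, overall (5) and by set (3), lie at the edge of the choice, or have the smallest p (3) by test and direction. Time patterns, medians over wells and sums by well were added after the values were seen.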

Additional observations from a re-analysis of the deposited data

Results flagged for a closer look

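In a group of 4 libraries, 1 library was far from the other 3 in 29 of 90 cases (5 quantities in 18 groups). That library was the highest of its group in each case. The rule took rows with many zeros and a high maximum, which favours 1 high library in a group. The 5 quantities also overlap, so no chance rate is set against this count. The share of counts on the 100 rows stood apart in WT ZT0 replicate 4 (2.43%), WT ZT4 replicate 4 (1.07%), WT ZT12 replicate 2 (27.9%), WT ZT20 replicate 4 (45.3%) and LRE ZT12 replicate 2 (0.461%).

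The sum of the 36-row set stood apart in WT ZT0 replicate 4 (1464 CPM), WT ZT16 replicate 4 (13941), LRE ZT0 replicate 4 (63859.8) and LRE ZT4 replicate 1 (58558). That of the 32-row set did so in WT ZT0 replicate 4 (719 CPM), WT ZT20 replicate 1 (4662), LRE ZT4 replicate 3 (1466) and LRE ZT12 replicate 2 (4240.3).

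The 15-row set had 8 such libraries: WT ZT0 replicate 4 (649 CPM), WT ZT4 replicate 4 (10645), WT ZT12 replicate 2 (278163), WT ZT16 replicate 1 (578), WT ZT20 replicate 4 (448235), LRE ZT16 replicate 4 (721), KO ZT0 replicate 4 (459.9) and KO ZT16 replicate 1 (567, which is 3 counts). The 14-row set had 8 as well: WT ZT0 replicate 4 (21352 CPM), WT ZT4 replicate 1 (238), WT ZT16 replicate 1 (11579), LRE ZT4 replicate 3 (18905), LRE ZT8 replicate 1 (24.1), LRE ZT12 replicate 2 (102.2), KO ZT0 replicate 4 (15873) and KO ZT20 replicate 4 (59.1).

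WT ZT0 replicate 4 appears for all 5 quantities and LRE ZT12 replicate 2 for 3 of them. The genotype difference varied over the day, by the test of the difference itself in edgeR, at 63 rows for KO against WT (32.5% of all rows). It did so at 51 for LRE against WT (26.5%) and at 55 for LRE against KO (12.4%). Both counts against WT include all 32 rows of the 32-row set, which were chosen through their maximum in WT ZT16.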

How the results depend on the processing

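The 4 sets stayed 4 with a pseudocount of 1 or 100 CPM, at a tree distance of 0.3, on thinned counts and without the 7 libraries. There were 3 at a distance of 0.5, which joined the 36-row and 14-row sets, and 3 with Spearman's rho, which kept 78.8% of pairs. Choosing the members without the 7 libraries kept 59 of the 100 rows, but 1 of the 32-row set. Requiring 36 zeros kept 63, and the median share of counts was then 0.0940% in WT, 0.297% in LRE and 0.634% in KO.

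Counts of calls in this section are of the chosen rows alone, and shares over all rows under these settings are not given. Such counts show only how far the calls move, and not whether the chosen rows differ from the rest. Between KO and WT (20) there were 33 without a filter, 43 with limma-voom and 53 with DESeq2. Between LRE and WT (5) there were 12, 62 and 50, and 1 without the 7 libraries. Between LRE and KO (0) there were 8 without a filter and 21 with DESeq2, which gave no adjusted p for 4 rows. For time in WT (84) there were 32 without the 7 libraries, and for time in KO (1) there were 77 without a filter and 0 with limma-voom. Time patterns without the 7 libraries were called at 4 rows between KO and WT and 6 between LRE and WT, and at 99 in the latter without a filter. Where both genotypes have a group without a count, a row gets no call in edgeR by construction; otherwise the cause was not tested. The wells that share a side were higher for 29.4% of 34 rows at 3000 CPM, for 92.3% by the share of libraries with a count, and for 100% by medians. Rows with the same highest library share these wells, so they are not separate observations.

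Leaving out a replicate number or a single library gave 9 to 22 rows for KO against WT, 0 to 6 for LRE against WT and always 0 for LRE against KO. For time it gave 67 to 88 in WT, 1 to 54 in LRE and 0 to 10 in KO. Time patterns ran from 42 to 66 (KO and WT), 28 to 57 (LRE and WT) and 20 to 58 (LRE and KO). Of 72 fits without 1 library, 44 moved the count for LRE and WT by over 1.5 times.

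Replicate numbers did not pair the samples (mean r of deviations 0.0015 over 612 pairs with the same number). With the replicate block 21 rows differed for KO against WT, 2 for LRE against WT and 0 for LRE against KO. For time the block gave 82 in WT, 51 in LRE and 0 in KO, and for time patterns 61, 53 and 54. At the median depth a row under 11.6 CPM can have no count.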
